A study of Mus musculus with 14 samples.

Results

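The response of mouse ear skin to croton oil was compared between 2 ways of removing Langerhans cells, the antigen-presenting cells of the epidermis. The quantity described is a difference of responses: croton oil minus vehicle in LC-DTA ears, minus croton oil minus vehicle in LC-DTR ears. It was computed for each gene on log2(TPM + 1), where TPM is the deposited length-normalised share of transcripts and 1 is the added pseudocount. All 14 samples of the series entered it, with 3 vehicle and 4 croton oil samples of each genotype. Of 24035 genes in the table, the 14693 that reached 1 TPM in 3 or more samples were tested, and 9342 were not.

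In LC-DTR mice the Langerhans cells had been depleted for a short time, the ears being taken 3 days after diphtheria toxin. LC-DTA mice had been without Langerhans cells for a long time. Both sides of the ear were painted with 20 µl of vehicle, acetone and olive oil at 4 to 1, or with 1% croton oil in it. Whole ears were taken 6 hours later and polyadenylated RNA was sequenced. In lines with these names, diphtheria toxin or its receptor is as a rule driven from the promoter of human Langerin, a Langerhans cell lectin, but the labels do not describe the construct. Whether LC-DTA mice received toxin is not given in the sources used here, nor are strain, age, sex or the hour of collection. No group had intact Langerhans cells, so genotype, the length of the loss and the toxin cannot be told apart in any value below. The labels do not say that each sample was a separate animal, so the p-values measure the spread between these samples, which may be partly technical.

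The table carries no read counts, so depth is unknown and no counting error can be attached to a TPM value. Each sample had 13733 to 14332 genes at 1 TPM or more. Cd207, which encodes Langerin, was at 0.0567 to 1.88 TPM over the 14 samples and was not tested. Markers of epidermis, cartilage, nerve, muscle, fat and blood vessels were all detected, which fits the whole-ear label. The first principal component of log2(TPM + 1) held 50.5% of the variance. On it, LC-DTR croton oil samples 2 and 3 stood at 5.26 and 8.06, apart from samples 1 and 4 of that group at 28.5 and 28.6. LC-DTR vehicle 3 was the lowest of its group at Fkbp5, Txnip, Tsc22d3 and Klf15 and the highest at Uhrf1, Mcm2 and Mki67. In a whole ear, fewer cells of a type and less RNA per cell cannot be told apart.

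Croton oil is an irritant whose phorbol esters activate protein kinase C in keratinocytes and other skin cells. Cytokines, chemokines and immediate early transcription factors follow, blood leukocytes enter, and keratinocytes later proliferate. Glucocorticoid hormone acts on the same tissue through its receptor and induces genes such as Fkbp5, Tsc22d3 and Klf15. Skin also runs a circadian clock, in which Arntl and Clock activate the genes of their own repressors, the Per, Cry and Nr1d proteins.

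The responses of the 2 genotypes differed at 3389 genes, 23.1% of those tested (limma on log2(TPM + 1), Benjamini-Hochberg adjusted p under 0.05). The difference was higher in LC-DTA at 1541 genes, 10.5% of those tested, and lower at 1848, 12.6%. At 473 of them it was 2-fold or more, 226 higher and 247 lower. Its median over all genes tested was -0.02. These 3389 genes were sorted by which of the 2 responses was itself called at the same threshold. Croton oil responses were called at 51.6% of genes in LC-DTR and at 58.7% in LC-DTA.

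A response called in LC-DTA and not in LC-DTR is termed gained, and the opposite case lost. Gained responses made up 1455 genes, 9.9% of those tested, with 516 rises and 939 falls. Lost responses made up 951 genes, 6.47%, with 365 rises and 586 falls. At 386 genes, 2.63%, both responses were called with opposite signs and are termed reversed: 208 rose in LC-DTR and fell in LC-DTA, and 178 did the opposite. Responses of the same sign were larger in LC-DTA at 396 genes, 2.7%, and smaller at 149, 1.01%. The remaining 52 genes, 0.354%, had neither response called. Gained and lost describe calls and not the absence of a response in the other genotype.

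**Figure D1:**
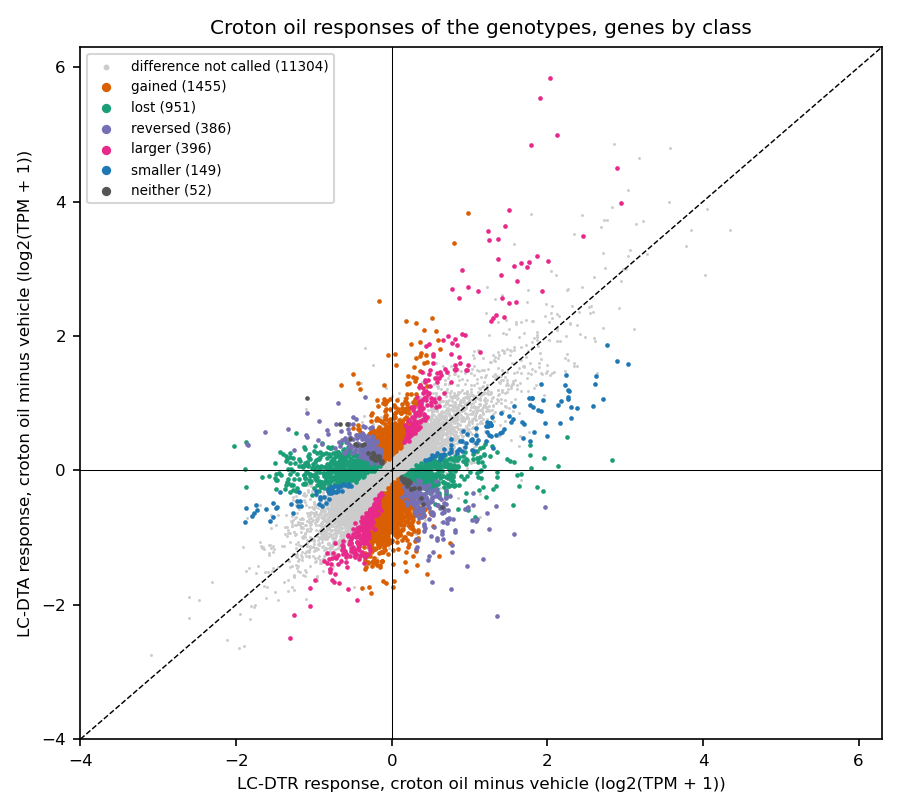
Each point is one tested gene, with its croton oil response in LC-DTR ears on the x axis and in LC-DTA ears on the y axis, both as log2(TPM + 1) differences from vehicle. Colours mark the classes, from 1455 gained and 951 lost to 386 reversed responses, and the reversed genes lie in the upper left and lower right areas.

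Many of the reversed responses were small. With both responses at 1.5-fold or more, 33 reversed genes were left, 27 falling in LC-DTA and 6 rising. Without LC-DTR croton oil 2 and 3 the counts were 1082 gained, 1040 lost and 339 reversed. Without samples 1 and 4 of the same group they were 1806 gained, 559 lost and 261 reversed. Leaving out LC-DTA vehicle 2 lowered the total from 3389 to 2220 and the gained responses to 888. The share of genes in each class therefore rests in part on which LC-DTR croton oil samples are used.

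A difference of responses can come from the painted ears, the vehicle ears or both. LC-DTA and LC-DTR ears differed at 24.5% of all genes under vehicle and at 52.3% after croton oil. Among the 3389 genes, 2239 differed between genotypes after croton oil only, 589 under vehicle only, 420 in both and 141 in neither. The gained falls, the largest class, held the most genes that differed under vehicle only, 271 of 939. It was also so for 89 of 365 lost rises, 52 of 218 larger falls and 29 of 94 smaller rises. Among reversals that fell in LC-DTA it was 34 of 208. Classes with a higher difference had 40 of 516 gained rises, 5 of 178 larger rises, 10 of 55 smaller falls and 7 of 178 reversals. Among lost falls this was the case for 45 of 586, and 480 differed after croton oil only.

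**Figure D2:**
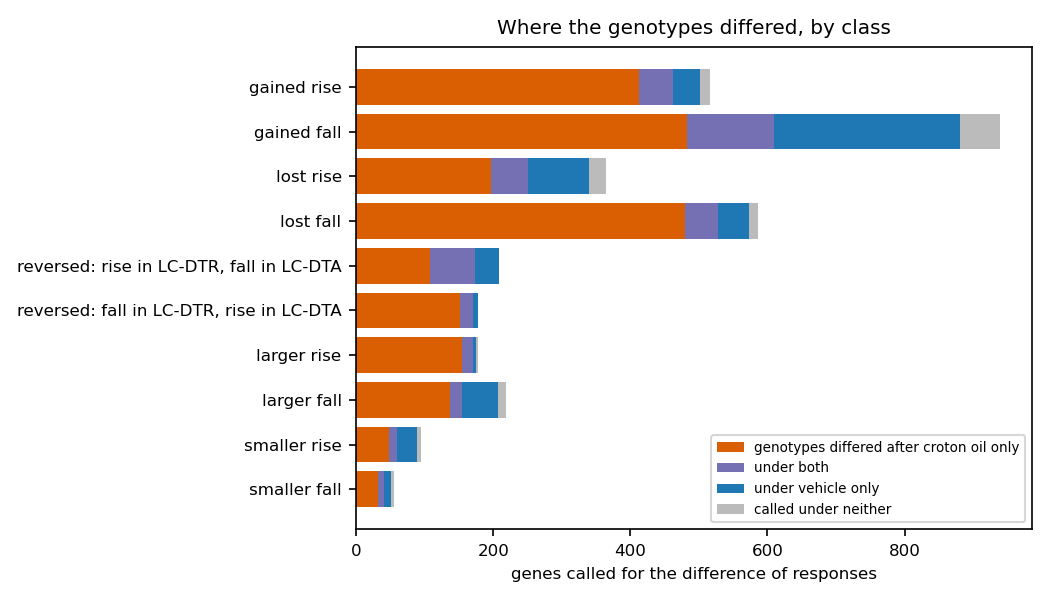
Stacked bars give the number of called genes of each class (x axis) by where the 2 genotypes differed: after croton oil only, under vehicle only, in both or in neither. Of genes that differed under vehicle only, gained falls hold 271, lost rises 89, larger falls 52, lost falls 45 and smaller rises 29.

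**Figure D3:**
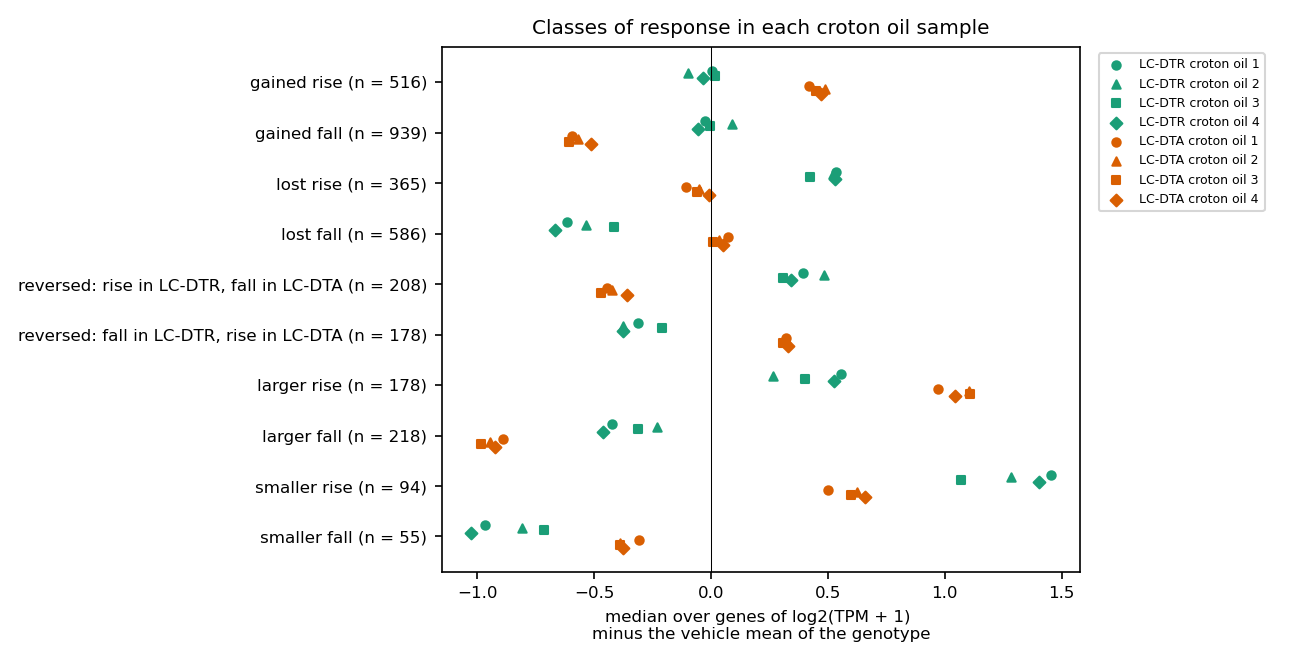
Points give, for each croton oil sample, the median over the genes of a class of log2(TPM + 1) minus the mean of its own genotype's vehicle samples. In the gained falls the 4 LC-DTA samples lie between -0.61 and -0.52 and the 4 LC-DTR samples between -0.06 and 0.09; these values chose the classes and describe how alike the samples of a group are.

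Among the gained rises, genes of inflammatory monocytes were among those with the largest differences. Ccr2 (chr9:124101950-124113557, + strand of GRCm38, GENCODE M21) encodes the chemokine receptor with which monocytes leave the bone marrow and enter tissue. It was at 8.88, 5.58 and 7.31 TPM in LC-DTR vehicle ears and 8.30, 4.55, 5.50 and 7.40 TPM in LC-DTR croton oil ears. In LC-DTA ears it was at 5.47, 5.24 and 6.51 TPM under vehicle and 30.5, 42.9, 40.1 and 38.04 TPM after croton oil. The LC-DTA croton oil samples stood above all 10 others, which overlapped. The difference of responses was 2.68 ± 0.25 log2 units (SE, limma, adjusted p = 8.21e-05), from a response of -0.16 in LC-DTR and 2.52 in LC-DTA. Ly6c2, a surface protein of the same monocytes, had 1.48, 1.10 and 5.16 TPM in LC-DTR vehicle and 5.997, 4.09, 2.51 and 6.45 TPM in LC-DTR croton oil ears. It had 4.17, 2.44 and 4.81 TPM in LC-DTA vehicle and 37.7, 63.9, 51.2 and 42.1 TPM in LC-DTA croton oil ears. Again the 4 LC-DTA croton oil samples were apart and the other 3 groups overlapped, with a difference of 2.58 ± 0.49 (adjusted p = 0.00311). Ly6c2 has a near-identical neighbour, and how reads were divided between them is not given.

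Other genes on a list of 21 monocyte and macrophage markers moved in both directions. Of the 19 tested, 5 had a higher and 4 a lower difference, beside 10.5% and 12.6% of all genes tested. The median of the 19 was -0.05. The higher ones were Ccr2, Ly6c2, Plac8, Lyz2, which encodes lysozyme, and F10, which encodes coagulation factor X. F10 rose in both genotypes and more in LC-DTA, at 0.231 to 0.316 TPM under vehicle and 0.498 to 1.83 TPM after croton oil in LC-DTR, and at 0.168 to 0.458 and 3.34 to 5.03 TPM in LC-DTA (difference 1.29 ± 0.27, adjusted p = 0.00475). Plac8 had a difference of 2.08 ± 0.68 and an adjusted p of 0.0401, but its call was lost under 14 of 27 other settings. The lower ones were C1qa, whose call was lost in 4 settings, C1qb and Mertk, genes of resident macrophages, and Cd14, an endotoxin co-receptor. C1qb was at 65.5 to 102 TPM in LC-DTR vehicle, 90.9 to 117 in LC-DTR croton oil, 122 to 159.5 in LC-DTA vehicle and 98.7 to 118 TPM in LC-DTA croton oil ears. LC-DTA vehicle samples were above all others at this complement gene, and after croton oil the genotypes overlapped. Lyve1, a receptor of lymphatic endothelium and of some macrophages, had the same order of groups, 79.8 to 90.5 TPM in LC-DTA vehicle and 45.6 to 78.3 TPM in LC-DTA croton oil ears (difference -1.05 ± 0.24, adjusted p = 0.00893).

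The summed level of the monocyte and macrophage list was 638 to 1046 TPM in LC-DTR vehicle and 820 to 1035 TPM in LC-DTR croton oil ears. It was 1391 to 1731 TPM in LC-DTA vehicle and 2035 to 2527 TPM in LC-DTA croton oil ears. The summed level was thus higher in LC-DTA ears before as well as after painting. How far cell numbers contribute to the single genes was not tested.

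Of 10 listed eosinophil and basophil genes only 3 were tested. Ccr3, the eotaxin receptor, Mcpt8, a basophil protease, and Cd200r3 were gained rises with differences of 0.81, 0.88 and 0.61. Ccr3 and Mcpt8 reached 1 TPM in LC-DTA croton oil ears only, and Cd200r3 in LC-DTA ears only. They were tested only because they were high there, so the filter largely fixed their direction and the 3 rises are a description. Without LC-DTA croton oil 3 and 4, 1 of them was called. The summed level of the list was 1.33 to 2.61 TPM in LC-DTR ears of either treatment, 1.82 to 2.27 TPM in LC-DTA vehicle and 5.01 to 6.77 TPM in LC-DTA croton oil ears. At levels this low the fold depends on the pseudocount, and the calls of Mcpt8 and Cd200r3 were lost in 1 and 4 settings. Ccl24, an eotaxin that draws eosinophils, was at 4.81, 2.69, 3.98 and 3.25 TPM in LC-DTR and 26.9, 63.2, 49.3 and 49.5 TPM in LC-DTA croton oil ears. Under vehicle it was at 2.73, 2.60 and 3.42 and 10.3, 7.45 and 19.9 TPM, so that LC-DTA ears were higher in both treatments and the response was larger there (difference 1.64 ± 0.42, adjusted p = 0.0137). The Ccl24 call was lost in 1 of 27 settings, at an adjusted p of 0.0540.

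Krt6b (chr15:101676023-101680287, - strand), a keratin of injured and hyperproliferative epidermis, was a gained rise in which the LC-DTR croton oil samples split. It was at 3.26, 16.9 and 3.74 TPM in LC-DTR vehicle and 24.6, 4.82, 8.82 and 25.96 TPM in LC-DTR croton oil ears. In LC-DTA ears it went from 5.19, 7.36 and 4.86 TPM under vehicle to 91.9, 148, 113 and 51.7 TPM after croton oil. LC-DTR croton oil samples 1 and 4 were above all LC-DTR vehicle samples, and samples 2 and 3 lay within their range. The difference was 2.84 ± 0.80 (adjusted p = 0.0219), and without samples 2 and 3 its adjusted p was 0.0675. Reads of Krt6b and its near-identical neighbour Krt6a may have been divided in ways that are not given.

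Genes of the unfolded protein response had higher differences more often than lower ones. This response of the endoplasmic reticulum raises chaperones and folding enzymes of that compartment when its load of unfinished protein grows. Of 18 listed genes tested, 10 had a higher difference and 1 a lower, beside 10.5% and 12.6% of all genes tested. The median of the 18 was 0.54. The higher ones were 5 reversals, 4 gained rises and 1 larger rise, and the lower one was a gained fall. Promoters of 4 genes with a higher difference are shown because they hold the ERSE, the element bound by ATF6 and NF-Y. The stretches come from RefSeq promoters of GRCm38.p6 and are written 5′ to 3′ on the strand of the gene. Capitals mark each match to CCAAT and CCACG with 9 bases between them on either strand, so a match on the other strand reads as its reverse complement. The stretches lie at chr15:88819486-88819585 (+ strand), chr10:86705525-86705664 (- strand), chr12:17266459-17266558 (+ strand) and chr2:34771980-34772079 (+ strand).
Creld2: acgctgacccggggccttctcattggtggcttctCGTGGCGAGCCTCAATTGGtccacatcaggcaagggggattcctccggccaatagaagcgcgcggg
Hsp90b1: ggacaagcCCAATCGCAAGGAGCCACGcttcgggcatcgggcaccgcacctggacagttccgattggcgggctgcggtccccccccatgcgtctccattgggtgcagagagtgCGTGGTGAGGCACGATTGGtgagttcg
Pdia6: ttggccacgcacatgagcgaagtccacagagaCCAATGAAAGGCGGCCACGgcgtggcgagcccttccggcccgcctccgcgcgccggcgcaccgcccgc
Hspa5: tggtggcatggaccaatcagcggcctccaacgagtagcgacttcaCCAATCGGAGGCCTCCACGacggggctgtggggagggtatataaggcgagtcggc
Within 250 bases before the start, 5 of the 16 list genes with a promoter in the table held this motif, 31.3%: the 4 shown and Calr. Among all 10797 tested genes with a promoter it was in 14, 0.130%.

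Creld2 (chr15:88819646-88826683, + strand), a secreted disulphide isomerase-like protein, was at 37.7, 33.2 and 36.8 TPM in LC-DTR vehicle and 32.2, 31.5, 34.97 and 31.8 TPM in LC-DTR croton oil ears. It was at 36.7, 35.1 and 39.4 TPM in LC-DTA vehicle and 60.8, 59.96, 66.5 and 60.9 TPM in LC-DTA croton oil ears. The LC-DTA croton oil samples were above all others, and both vehicle groups overlapped. Its difference was 0.86 ± 0.09 (adjusted p = 0.000146). Calr (chr8:84841850-84846934, - strand) encodes calreticulin, the chaperone that binds sugars on new glycoproteins. Its levels were 369, 381 and 481 TPM in LC-DTR vehicle, 373, 325, 387 and 341 TPM in LC-DTR croton oil, 387, 357 and 393 TPM in LC-DTA vehicle and 617, 646, 699.9 and 642 TPM in LC-DTA croton oil ears. All 4 LC-DTA croton oil samples were above the other 10, and the difference was 0.97 ± 0.13 (adjusted p = 0.000425).

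Pdia4 (chr6:47796141-47813430, - strand), a protein disulphide isomerase, was a reversed response. It went from 46.4, 47.9 and 49.4 TPM to 36.5, 27.95, 39.3 and 27.2 TPM in LC-DTR ears and from 43.1, 42.3 and 44.2 TPM to 73.6, 69.3, 73.8 and 65.2 TPM in LC-DTA ears. In LC-DTR the croton oil samples were below vehicle and in LC-DTA above it, without overlap in either (difference 1.24 ± 0.15, adjusted p = 0.000257). Hsp90b1, Pdia6, Sdf2l1 and Xbp1 reversed in the same sense, with differences of 0.90, 0.70, 1.23 and 0.43. Hspa5, which encodes the chaperone BiP, rose in both genotypes, by 0.25 in LC-DTR and 0.94 in LC-DTA. Manf and Hyou1 were gained rises at 0.64 and 0.89. Herpud1, a component of the degradation machinery of the same compartment, went against its list with a gained fall of -0.52. The count of higher genes on the list was 10 or 11 under each of 27 other settings.

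The gained falls were the most numerous group. Of 19 listed glucocorticoid-induced genes tested, 4 were among them. Txnip (chr3:96557957-96561883, + strand), which binds thioredoxin and limits glucose uptake, was at 509, 666 and 365 TPM in LC-DTR vehicle and 885, 1013, 442 and 549 TPM in LC-DTR croton oil ears. In LC-DTA ears it was at 332, 508 and 321 TPM under vehicle and 135, 133, 127 and 120.1 TPM after croton oil. Only the LC-DTA croton oil samples lay apart, below all 10 others. The difference was -2.004 ± 0.37 (adjusted p = 0.00279). Tsc22d3, which encodes the glucocorticoid-induced leucine zipper protein GILZ, was at 37.2 to 52.6 TPM in LC-DTA croton oil ears against 109.6 to 206 TPM under vehicle. In LC-DTR it was at 182 to 412 TPM under vehicle and 209 to 396 TPM after croton oil, groups that overlapped (difference -1.75 ± 0.42, adjusted p = 0.0107).

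Sesn1 (chr10:41809935-41908424, + strand), a sestrin that restrains mTORC1 and a p53 target, had 43.4, 50.6 and 46.8 TPM in LC-DTR vehicle and 45.1, 53.4, 39.4 and 40.8 TPM in LC-DTR croton oil ears. In LC-DTA it had 39.8, 46.1 and 37.9 TPM under vehicle and 13.3, 11.9, 10.8 and 12.9 TPM after croton oil. The 10 other samples lay between 37.9 and 53.4 TPM and the LC-DTA croton oil samples all lay lower. Its difference was -1.60 ± 0.15 (adjusted p = 8.21e-05), from a response of -0.08 in LC-DTR and -1.68 in LC-DTA. Papln, which encodes the matrix protein papilin, showed the same layout, 3.91 to 6.04 TPM in LC-DTA croton oil ears and 16.9 to 22.7, 15.3 to 23.8 and 15.4 to 20.7 TPM in LC-DTR vehicle, LC-DTR croton oil and LC-DTA vehicle ears (difference -1.67 ± 0.25, adjusted p = 0.00092). Over all genes tested, 12.6% had a lower and 10.5% a higher difference. Of 23 p53 targets tested, 5 had a lower difference and 1 a higher, and 17 were not called. The lower count was 2 without LC-DTR croton oil 1 and 4, 3 without LC-DTA croton oil 3 and 4 or without LC-DTA vehicle 3, and 8 without LC-DTR vehicle 2, and the higher count ranged from 0 to 2. Jund, an AP-1 subunit, and Klf4, a transcription factor of differentiating epidermis, were gained falls of -0.90 and -0.70 (adjusted p = 0.000338 and 0.00228).

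Circadian clock genes formed another group of gained falls. Of 19 listed genes tested, none had a higher difference and 10 a lower, beside 10.5% and 12.6% of all genes tested. The median of the 19 was -0.54. The 10 were 6 gained, 2 reversed, 1 lost and 1 smaller. Cry2 (chr2:92403646-92434043, - strand), a repressor of the clock, was at 65.5, 52.3 and 53.2 TPM in LC-DTR vehicle and 59.3, 65.6, 56.5 and 58.4 TPM in LC-DTR croton oil ears. It was at 68.6, 89.7 and 68.4 TPM in LC-DTA vehicle and 31.6, 31.3, 31.01 and 37.1 TPM in LC-DTA croton oil ears. The LC-DTA croton oil samples were the lowest 4 and LC-DTA vehicle samples the highest 3 (difference -1.25 ± 0.15, adjusted p = 0.000242). Nr1d1, the nuclear receptor REV-ERB alpha, was at 206 to 239 TPM under vehicle and 82.1 to 101 TPM after croton oil in LC-DTA, and at 130.1 to 219 and 155 to 186 TPM in LC-DTR (difference -1.19 ± 0.19, adjusted p = 0.00149). Per1, also induced by glucocorticoid, had 60.4 to 93.2 and 88.03 to 109 TPM in LC-DTR and 65.7 to 80.9 and 30.2 to 47.4 TPM in LC-DTA ears, vehicle before croton oil (difference -1.35 ± 0.24, adjusted p = 0.00223).

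Arntl, an activator of the clock, reversed: it was at 50.5, 49.8 and 43.9 TPM in LC-DTR vehicle and 59.6, 70.6, 60.8 and 64.9 TPM in LC-DTR croton oil ears, then 63.7, 58.4 and 64.6 TPM in LC-DTA vehicle and 37.7, 41.9, 37.6 and 49.2 TPM in LC-DTA croton oil ears. Croton oil samples were above vehicle in LC-DTR and below it in LC-DTA (difference -0.98 ± 0.13, adjusted p = 0.000489). The activator Arntl and the repressors Cry2, Nr1d1 and Per1 all fell in LC-DTA ears. Dbp, an output of the clock, fell in both genotypes, with responses of -1.81 in LC-DTR and -2.03 in LC-DTA, and its difference of -0.22 ± 0.22 was not called (adjusted p = 0.494). Ciart, a repressor whose promoter holds 3 E-boxes bound by Clock and Arntl, fell in LC-DTA with a difference of -0.86 ± 0.20 (adjusted p = 0.00841). The stretch at chr3:95882259-95882358 (- strand, GRCm38.p6) is shown with the E-boxes, CACGTG, in capitals.
Ciart: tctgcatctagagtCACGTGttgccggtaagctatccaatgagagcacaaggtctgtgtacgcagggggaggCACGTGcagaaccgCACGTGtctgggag
An E-box lay within 250 bases before the start of 5 of 16 list genes with a promoter, 31.3%, and of 8.21% of tested genes. Per1 and Ciart held one, as did Cry1, whose call was lost under 16 of 27 settings, and Bhlhe41 and Tef, which were not called.

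A part of the gained falls differed between genotypes under vehicle only. Timp2 (chr11:118301069-118355740, - strand), an inhibitor of matrix metalloproteinases, was at 369, 265 and 340.4 TPM in LC-DTR vehicle and 328, 361, 333 and 297 TPM in LC-DTR croton oil ears. It was at 488, 531 and 556 TPM in LC-DTA vehicle and 286, 362, 322 and 332 TPM in LC-DTA croton oil ears. Only the LC-DTA vehicle samples were apart, above all others. The difference was -0.72 ± 0.15 (adjusted p = 0.00513). Genotypes differed by 0.70 under vehicle and -0.02 after croton oil. Dcn, the dermal proteoglycan decorin, Mmp2, a gelatinase, Col9a3, a cartilage collagen, and Pmp22, a myelin protein of Schwann cells, had differences of -0.77, -0.65, -0.60 and -0.68. At each of these 4 genes the genotypes differed under vehicle, by 0.79, 0.69, 0.81 and 0.74, and were not called different after croton oil. The Dcn call was lost in 5 and the Col9a3 call in 1 of 27 settings.

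Marker sums of cartilage and Schwann cells are given beside these genes. Col9a3 counts in the cartilage sum and Pmp22 in the Schwann cell sum, and Timp2, Dcn and Mmp2 are in neither. Of 13 cartilage markers tested, 0 had a higher and 3 a lower difference, and of 12 Schwann cell markers 1 and 2. The shares over all genes tested were 10.5% and 12.6%. The Schwann cell marker with a higher difference was Ngfr, at 0.545 to 0.733 over 27 other settings, with its call lost in 1. Cartilage markers summed to 334 to 470 TPM in LC-DTR vehicle, 283 to 409 TPM in LC-DTR croton oil, 469 to 561 TPM in LC-DTA vehicle and 245 to 333 TPM in LC-DTA croton oil ears. Schwann cell markers summed to 497 to 688, 579 to 703, 847 to 1001 and 628 to 750 TPM in the same order. Their part in these results was not tested.

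Serpina3m, Fkbp5 and Agt were lost rises with large differences. Serpina3m (chr12:104338486-104394257, + strand), a serine protease inhibitor of the antichymotrypsin family, was at 0.293, 1.01 and 0.257 TPM in LC-DTR vehicle and 12.9, 9.79, 7.62 and 8.43 TPM in LC-DTR croton oil ears. It was at 0.157, 0.230 and 0.186 TPM in LC-DTA vehicle and 0.485, 0.173, 0.172 and 0.479 TPM in LC-DTA croton oil ears. Every LC-DTR croton oil sample was above all 10 others, and the LC-DTR vehicle samples were above those of LC-DTA vehicle. Its difference was -2.68 ± 0.26 (adjusted p = 9.16e-05), though reads of this family of close copies may have been divided among members. Serpina3m reached 1 TPM in 5 samples, all from LC-DTR ears. It was tested only because it was high in LC-DTR croton oil ears, so the filter largely fixed its direction. Fkbp5 (chr17:28399094-28517527, - strand), a co-chaperone that limits the glucocorticoid receptor, was at 94.5, 138 and 54.6 TPM in LC-DTR vehicle and 333, 369.7, 332 and 348 TPM in LC-DTR croton oil ears. LC-DTA ears had 61.5, 72.4 and 67.2 TPM under vehicle and 50.7, 45.9, 51.97 and 69.9 TPM after croton oil. The 4 LC-DTR croton oil samples were above all others, and the LC-DTA groups overlapped. The difference was -2.24 ± 0.31 (adjusted p = 0.000618).

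Agt (chr8:124556534-124569706, - strand), which encodes angiotensinogen, was at 0.958, 1.46 and 2.24 TPM in LC-DTR vehicle and 12.1, 11.7, 7.99 and 8.83 TPM in LC-DTR croton oil ears, and at 1.76, 1.79 and 2.02 TPM in LC-DTA vehicle and 1.72, 1.67, 2.30 and 2.23 TPM in LC-DTA croton oil ears. LC-DTA groups overlapped and LC-DTR croton oil ears were apart (difference -2.08 ± 0.24, adjusted p = 0.000188). Orm3 and Pdk4 were lost rises too. Orm3, an acute phase protein gene with near copies, was at 6.63 to 11.3 TPM in LC-DTR croton oil ears and 0.713 to 2.80 TPM in LC-DTA croton oil ears (difference -1.86 ± 0.39, adjusted p = 0.00492). Pdk4, a kinase that shuts pyruvate dehydrogenase, had a difference of -1.75 ± 0.32 (adjusted p = 0.00246).

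Other lost rises started higher in LC-DTA vehicle ears. Nr4a2 (chr2:57106830-57124003, - strand), an immediate early nuclear receptor, was at 6.16, 3.80 and 6.16 TPM in LC-DTR vehicle and 21.6, 24.4, 16.5 and 21.2 TPM in LC-DTR croton oil ears. It was at 14.2, 15.8 and 18.6 TPM in LC-DTA vehicle and 14.1, 17.2, 16.7 and 18.7 TPM in LC-DTA croton oil ears. The LC-DTA groups overlapped each other at levels close to those of painted LC-DTR ears. The difference was -1.76 ± 0.22 (adjusted p = 0.000343), with genotypes apart by 1.45 under vehicle and -0.31 after croton oil (adjusted p = 0.000325 and 0.0919). Plat (chr8:22757727-22782844, + strand), the tissue plasminogen activator gene, was at 9.02 to 9.97 TPM and then 21.95 to 31.9 TPM in LC-DTR ears, and at 18.8 to 19.9 TPM and 16.8 to 21.6 TPM in LC-DTA ears. Its difference was -1.38 ± 0.15 (adjusted p = 0.000146). Bag3, a co-chaperone of Hsp70, had the same order of groups with a difference of -0.63 ± 0.08 (adjusted p = 0.000478). Of 24 immediate early genes tested, 6 had a lower difference and none a higher, beside 12.6% and 10.5% of all genes tested. Without LC-DTR vehicle 1, 12 of the list had a lower one. A cyclic AMP response element lay within 250 bases before the start of 1 of 18 list genes with a promoter, Btg2. This was 5.56%, against 2.61% of tested genes with a promoter. Fos, the immediate early gene most used as a marker, had a difference of -0.04 ± 0.42 that was not called (adjusted p = 0.963).

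DNA replication and mitosis genes were the listed groups with the most lost falls. Of 24 replication genes tested, 22 had a higher difference and none a lower, beside 10.5% and 12.6% of all genes tested. The median of the 24 was 1.06. The 22 were 12 lost falls, 8 reversals, 1 gained rise and 1 smaller fall. Cdt1 and Rrm2 were not called. The E2F family of transcription factors controls many of these genes, and 3 promoters that hold the motif TTTNNCGC are shown with every match on either strand in capitals, where overlapping matches run together. The stretches are from RefSeq, GRCm38.p6, at chr8:75109309-75109408 (+ strand), chr1:128359736-128359855 (- strand) and chr17:56303237-56303336 (+ strand).
Mcm5: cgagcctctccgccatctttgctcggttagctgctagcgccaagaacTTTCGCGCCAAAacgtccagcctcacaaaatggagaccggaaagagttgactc
Mcm6: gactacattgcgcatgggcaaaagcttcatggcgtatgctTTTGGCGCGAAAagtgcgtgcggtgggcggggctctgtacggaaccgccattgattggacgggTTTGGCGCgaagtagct
Uhrf1: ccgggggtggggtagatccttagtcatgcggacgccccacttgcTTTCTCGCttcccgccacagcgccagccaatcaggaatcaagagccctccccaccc
Within 250 bases before the start, 7 of 19 list genes with a promoter held it, 36.8%, against 6.77% of tested genes. Motif sharing is a description of these letters and not of binding.

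Uhrf1 (chr17:56303321-56323486, + strand), which recruits DNA methyltransferase to new strands, was at 14.3, 12.7 and 23.7 TPM in LC-DTR vehicle and 3.02, 3.23, 4.06 and 2.71 TPM in LC-DTR croton oil ears. It was at 14.6, 13.6 and 11.6 TPM in LC-DTA vehicle and 17.6, 16.1, 18.4 and 17.1 TPM in LC-DTA croton oil ears. The 4 LC-DTR croton oil samples were below all 10 others, and LC-DTR vehicle 3 was the highest. In LC-DTA the croton oil samples were all above vehicle, but that response was not called, so Uhrf1 counts as a lost fall. The difference was 2.40 ± 0.24 (adjusted p = 9.33e-05). Mcm2 (chr6:88883474-88898780, - strand), a subunit of the helicase that unwinds DNA at replication forks, was at 18.3, 17.00 and 22.1 TPM in LC-DTR vehicle and 4.85, 3.97, 5.38 and 4.20 TPM in LC-DTR croton oil ears. The LC-DTA ears were at 14.3, 14.2 and 12.4 TPM under vehicle and 17.2, 16.8, 20.3 and 17.6 TPM after croton oil. Croton oil samples were below vehicle in LC-DTR and above it in LC-DTA, which makes Mcm2 a reversal (difference 2.22 ± 0.15, adjusted p = 8.28e-06). Mcm5 reversed likewise, at 14.9 to 24.9 TPM under vehicle and 3.75 to 4.998 TPM after croton oil in LC-DTR, and at 13.6 to 14.5 and 17.3 to 20.7 TPM in LC-DTA (difference 2.25 ± 0.20, adjusted p = 6.03e-05). Pcna, the sliding clamp of DNA polymerase, was the gained rise, at 0.51 ± 0.12 (adjusted p = 0.00836).

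Mitosis genes followed with less certain counts. Of 22 tested, 15 had a higher difference and none a lower, beside 10.5% and 12.6% of all genes tested. The median of the 22 was 1.10, and 14 of the 15 were lost falls. Mki67, whose protein marks cycling cells, was at 12.4, 13.7 and 28.3 TPM in LC-DTR vehicle and 5.02, 6.10, 6.86 and 3.98 TPM in LC-DTR croton oil ears. It was at 18.8, 21.4 and 17.02 TPM in LC-DTA vehicle and 19.1, 17.2, 16.3 and 16.2 TPM in LC-DTA croton oil ears. LC-DTR croton oil samples were the lowest 4 and the LC-DTA groups overlapped (difference 1.35 ± 0.31, adjusted p = 0.0088). Cdk1 and Ccna2, the mitotic kinase and a cyclin that drives it, had differences of 1.30 and 1.57. The motif of the cell cycle homology region (CHR) lay within 250 bases before the start of 7 of 18 list genes with a promoter. This was 38.9%, against 10.7% of tested genes with a promoter. The count of called mitosis genes was 8 without LC-DTR croton oil 1 and 4, 17 without samples 2 and 3, 10 without LC-DTA croton oil 3 and 4, and 8 without LC-DTA vehicle 3. The replication count stayed between 18 and 23 under all 27 settings.

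Lost falls outside the cell cycle included signalling genes of the skin. Igfbp5 (chr1:72857932-72874884, - strand), which binds insulin-like growth factors, was at 159.7, 107 and 212 TPM in LC-DTR vehicle and 36.6, 39.02, 53.6 and 37.5 TPM in LC-DTR croton oil ears. In LC-DTA it was at 253, 280.2 and 223 TPM and 213, 256, 224 and 159 TPM. LC-DTR croton oil samples were below all others (difference 1.62 ± 0.29, adjusted p = 0.00228). Wnt3 (chr11:103774150-103817957, + strand), a Wnt ligand of hair follicle and epidermis, was at 22.1 to 32.3 and 7.54 to 10.4 TPM in LC-DTR and 23.1 to 28.9 and 21.5 to 28.2 TPM in LC-DTA ears (difference 1.44 ± 0.19, adjusted p = 0.000469). Il33, an alarmin of keratinocytes and stromal cells that acts on mast cells, was at 45.3 to 93.99 TPM in LC-DTR vehicle and 21.3 to 35.5 TPM in LC-DTR croton oil ears. LC-DTA ears had 53.5 to 62.6 and 46.97 to 66.00 TPM, groups that overlapped (difference 1.20 ± 0.30, adjusted p = 0.013).

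Sterol and fatty acid synthesis genes had 11 higher and 0 lower differences of 22 tested, beside 10.5% and 12.6% of all genes tested. The median of the 22 was 0.40. Sqle and Cyp51, enzymes of cholesterol synthesis, had differences of 0.53 and 0.44. The count fell to 6 without LC-DTR croton oil 1 and 4, and to 7 without LC-DTR croton oil 4, LC-DTA vehicle 2 or LC-DTA croton oil 2. Insig1, a brake on sterol synthesis, had a difference of 0.07 ± 0.14 that was not called (adjusted p = 0.739). Ch25h, which makes 25-hydroxycholesterol in activated immune cells, rose in both genotypes and more in LC-DTA (difference 1.59 ± 0.33, adjusted p = 0.00457).

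Some reversed responses rose in LC-DTR and fell in LC-DTA. Klf15 (chr6:90462576-90475238, + strand), a glucocorticoid-induced regulator of amino acid and lipid use, was at 14.97, 16.1 and 8.78 TPM in LC-DTR vehicle and 26.1, 29.7, 24.1 and 24.8 TPM in LC-DTR croton oil ears. It was at 10.9, 16.1 and 9.89 TPM and 3.22, 3.28, 3.71 and 5.48 TPM in LC-DTA ears. No groups overlapped within a genotype (difference -2.39 ± 0.29, adjusted p = 0.000257).

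Serpina3c and Zbtb16 were further reversals. Serpina3c, a relative of Serpina3m with the same doubt over shared reads, was at 7.01 to 9.28 TPM in LC-DTR vehicle and 28.9 to 37.4 TPM in LC-DTR croton oil ears. In LC-DTA it was at 9.51 to 11.95 and 6.24 to 7.76 TPM (difference -2.51 ± 0.16, adjusted p = 5.37e-06). Zbtb16, the transcription factor PLZF, was at 7.58 to 17.01 TPM under vehicle and 31.4 to 45.5 TPM after croton oil in LC-DTR, and at 5.11 to 12.95 and 2.31 to 5.34 TPM in LC-DTA (difference -2.51 ± 0.42, adjusted p = 0.00162). The LC-DTA groups of Zbtb16 overlapped slightly, and its LC-DTR groups were apart.

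Glucocorticoid-induced genes were spread over the classes but had 1 direction. Of 19 listed genes tested, 13 had a lower difference and none a higher, beside 12.6% and 10.5% of all genes tested. The median of the 19 was -1.23. The 13 were 4 gained falls, 2 lost rises, 4 reversals and 3 smaller rises. Sgk1, a kinase that governs sodium channels, reversed with a difference of -1.16 ± 0.23 (adjusted p = 0.00373). Mt1, a metallothionein, was at 579, 867 and 412 TPM in LC-DTR vehicle and 5088, 3018, 2841 and 5195 TPM in LC-DTR croton oil ears. LC-DTA ears had 509, 593 and 473 TPM and 903, 886, 1457 and 1242 TPM, so it rose in both and less there (difference -1.64 ± 0.38, adjusted p = 0.00866). The count stayed between 11 and 14 under 27 settings. A glucocorticoid response element lay within 250 bases before the start of 1 of 16 list genes with a promoter, Mt1. This was 6.25%, against 0.287% of tested genes with a promoter. Sites further from the start were not searched. The list was drawn up with earlier results of these data known, so its direction is not independent evidence.

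**Figure D4:**
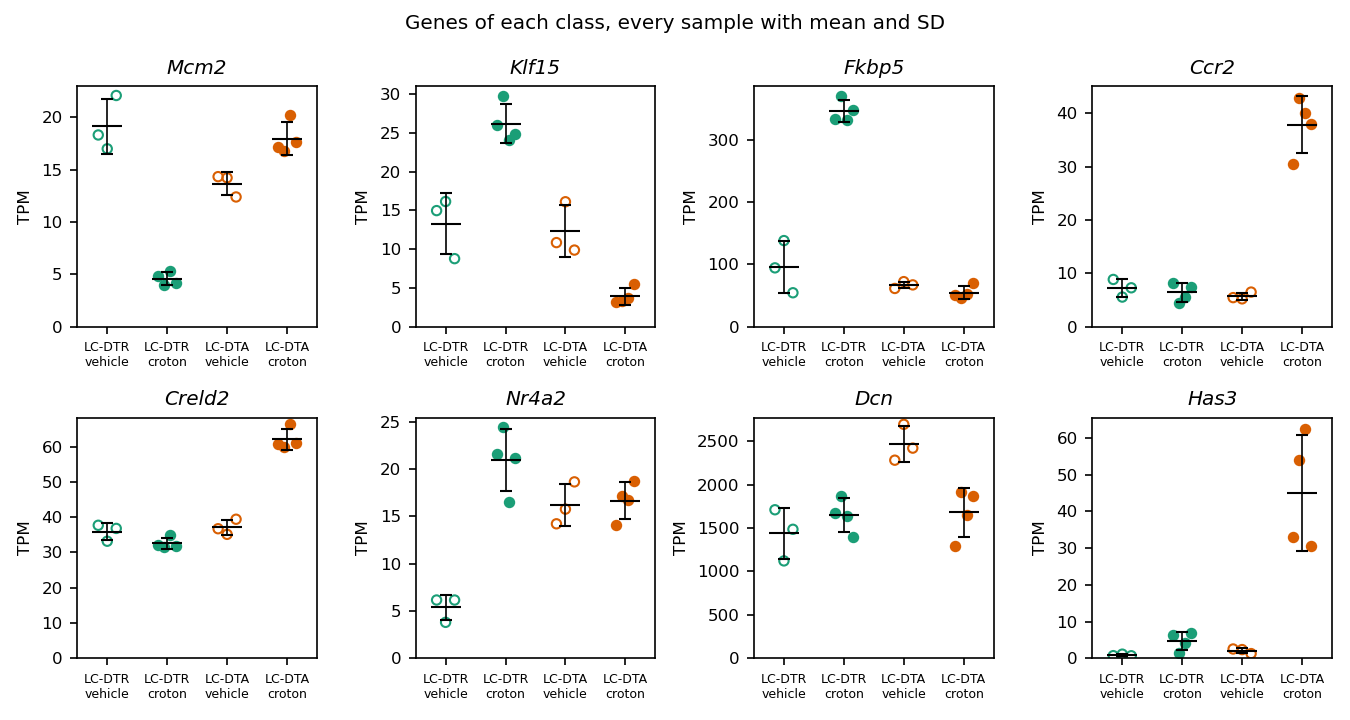
Each panel shows one gene in TPM for the 14 samples, by genotype and treatment, with a short line at the group mean and error bars of 1 SD. Mcm2 falls in LC-DTR and rises in LC-DTA, Klf15 does the opposite, Fkbp5 and Nr4a2 rise in LC-DTR only, Ccr2 and Creld2 rise in LC-DTA only, Dcn is highest in LC-DTA vehicle and Has3 rises in both.

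A reversal in the other direction was seen for Krt14, the keratin of basal epidermis. It was at 5382, 5942 and 5868 TPM in LC-DTR vehicle and 4010.0, 3743, 4892 and 4137 TPM in LC-DTR croton oil ears. The LC-DTA ears were at 5292, 4681 and 5312 TPM and 6942, 5840.0, 6403 and 5970.0 TPM. Croton oil samples were below vehicle in LC-DTR and above it in LC-DTA (difference 0.76 ± 0.14, adjusted p = 0.00243). The 12 basal keratinocyte markers had 2 higher and 1 lower difference, beside 10.5% and 12.6% of all genes tested. Without LC-DTR croton oil 1 and 4 the markers had 4 and 2. Their sum was 21358 to 23767 TPM in LC-DTR vehicle, 15069 to 17534 TPM in LC-DTR croton oil, 19895 to 20374 TPM in LC-DTA vehicle and 17448 to 19804 TPM in LC-DTA croton oil ears.

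Among responses that were larger in LC-DTA, Has3 (chr8:106870242-106884566, + strand), a hyaluronan synthase, was at 0.724, 1.13 and 0.699 TPM in LC-DTR vehicle and 6.29, 1.58, 4.09 and 6.88 TPM in LC-DTR croton oil ears. In LC-DTA it was at 2.54, 2.38 and 1.29 TPM under vehicle and 33.1, 54.1, 62.5 and 30.5 TPM after croton oil. Every LC-DTA croton oil sample was above every LC-DTR one (difference 2.36 ± 0.48, adjusted p = 0.00454). Cxcl5, a neutrophil-attracting chemokine, was at 1.37 to 2.56 TPM in LC-DTR and 8.14 to 23.00 TPM in LC-DTA croton oil ears (difference 2.33 ± 0.34, adjusted p = 0.000834). Edn2 (chr4:120161206-120167360, + strand), an endothelin, fell further in LC-DTA, where it was at 19.1 to 22.4 TPM under vehicle and 3.44 to 6.58 TPM after croton oil, against 8.24 to 10.4 and 6.25 to 7.60 TPM in LC-DTR (difference -1.49 ± 0.21, adjusted p = 0.000598). Il6, Osm and Ccl4, cytokines and a chemokine of early inflammation, had adjusted p-values of 0.0446, 0.0401 and 0.0445, and each call was lost under 16 or 17 of 27 settings.

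Responses that were smaller in LC-DTA included immediate early genes. Apold1 (chr6:134981718-134986836, + strand), an endothelial early response gene, was at 4.70, 5.32 and 3.54 TPM in LC-DTR vehicle and 35.3, 29.4, 18.8 and 23.4 TPM in LC-DTR croton oil ears. LC-DTA ears had 17.7, 18.2 and 21.5 TPM and 32.95, 30.5, 35.7 and 34.1 TPM. LC-DTA vehicle samples were above LC-DTR vehicle samples, and after croton oil the genotypes overlapped (difference -1.53 ± 0.24, adjusted p = 0.00119). Nr4a1 and Nr4a3, relatives of Nr4a2, had differences of -1.46 ± 0.38 and -1.33 ± 0.26 (adjusted p = 0.0165 and 0.00361) and the same starting difference under vehicle, 1.34 and 1.26. The Nr4a1 call was lost in 1 of 27 settings, at an adjusted p of 0.0514.

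Many inflammatory and mast cell genes showed no difference that passed the test. S100a8 and S100a9, the calprotectin genes of neutrophils and stressed keratinocytes, had differences of -0.27 ± 0.68 and 0.22 ± 0.62 (adjusted p = 0.802 and 0.827). Cxcl1, a chemokine for neutrophils, had a difference of -0.16 ± 0.79 (adjusted p = 0.906), and without LC-DTR vehicle 3 it was 0.90 with an adjusted p of 0.0359. With SEs this large, a difference of the size seen for Calr would not have passed the test at these 3 genes. Of 19 neutrophil markers tested, 3 had a higher and 1 a lower difference, beside 10.5% and 12.6% of all genes tested. Cd177, 1 of the higher ones, reached 1 TPM in LC-DTA croton oil ears only, so the filter largely fixed its direction. Without LC-DTR croton oil 1 and 4 the counts were 8 and 1. Without LC-DTR croton oil 2 and 3 there were 3 and 3, and without LC-DTA croton oil 3 and 4 there were 1 and 1. Their sum was 551 to 1195 TPM in LC-DTR and 676 to 929 TPM in LC-DTA croton oil ears.

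Of 19 mast cell markers tested, 2 had a higher and 4 a lower difference, beside 10.5% and 12.6% of all genes tested. The lower count was 1 without LC-DTR croton oil 2 and 3 and 2 without LC-DTA croton oil 3 and 4, and it ranged from 1 to 5 over 27 other settings. Mcpt4 and Cma1, chymases of connective tissue mast cells, and Cpa3, a carboxypeptidase of their granules, had differences of 0.07 ± 0.31, -0.16 ± 0.25 and -0.32 ± 0.26, none called. They were higher in LC-DTA in both treatments, by 1.10 and 1.17 for Mcpt4, 1.12 and 0.96 for Cma1, and 0.93 and 0.62 for Cpa3 under vehicle and croton oil. The marker sum was 272 to 375 TPM in LC-DTR vehicle, 272 to 404 TPM in LC-DTR croton oil, 496 to 726 TPM in LC-DTA vehicle and 482 to 626 TPM in LC-DTA croton oil ears. The 2 markers with a higher difference were Rab27b and Cd200r3. Rab27b kept its call under all 27 other settings, with differences of 0.44 to 0.59. Cd200r3 reached 1 TPM in LC-DTA ears only, so the filter largely fixed its direction. Tpsb2, a tryptase, Mrgprb2, a receptor for basic secretagogues, and Gata2 were gained falls of -0.77, -0.78 and -0.61, but these calls were lost under 14, 12 and 13 of 27 settings. Hdc, which makes histamine and is also expressed by neutrophils and basophils, had a smaller rise in LC-DTA (difference -1.20 ± 0.29, adjusted p = 0.0109).

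Some other lists had few or no calls, and not every list is described. Of 28 interferon-stimulated genes 1 was called, Oas3, which reached 1 TPM in LC-DTA croton oil ears only, so the filter largely fixed its direction. None was called of 12 EGF receptor ligands and receptors, 11 lymphocyte and dendritic cell chemokines, 14 skeletal muscle markers and 7 melanocyte markers. Over 27 other settings at most 4, 3, 1, 3 and 1 of these lists' genes were called in either direction. Of 15 Langerhans and dendritic cell genes tested, 1 had a higher and 1 a lower difference, beside 10.5% and 12.6% of all genes tested. The median of the 15 was -0.64. Over 27 other settings each count ranged from 0 to 2. The list summed to 739 to 1144 TPM in LC-DTR vehicle and 1052 to 1501 TPM in LC-DTR croton oil ears. In LC-DTA ears it summed to 1322 to 2149 TPM under vehicle and 1099 to 1572 TPM after croton oil. The list also holds genes such as Cd74 and H2-Aa, and Cd207 did not pass the filter, so the sum does not measure Langerhans cells. A gene not called here is not shown to respond alike. On simulated data, 30 of 50 genes with a 1.5-fold difference of responses were called and 45 of 50 with a 2-fold one, but only 4 of 50 at a smaller fold. These differences were planted only in genes of higher mean level, with normal noise, so the rates do not cover genes near 1 TPM.

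**Figure D5:**
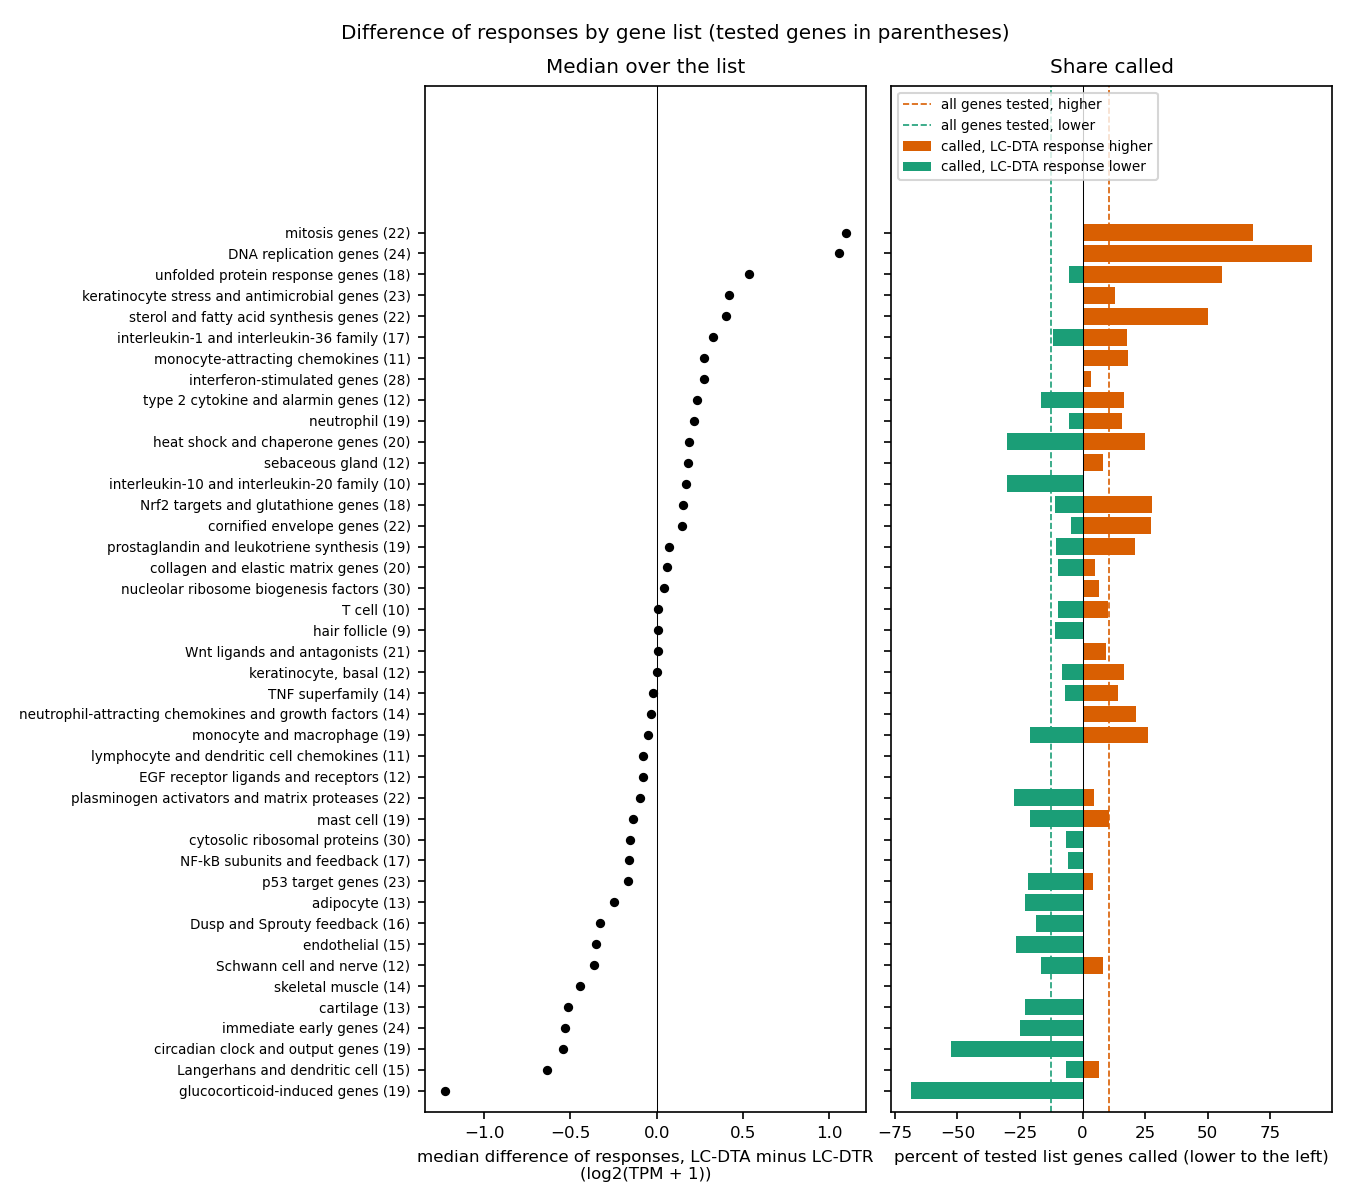
For each gene list with at least 9 tested genes, the plot gives the median difference of responses in log2 units and the percent of tested genes called in each direction. Mitosis (median 1.10, 15 of 22 higher), DNA replication (median 1.06, 22 of 24 higher) and glucocorticoid-induced genes (median -1.23, 13 of 19 lower) lie at the ends, and all genes tested have a median of -0.02.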

How the data were processed

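RNA of 14 whole-ear samples was measured in 4 groups, by polyadenylated RNA sequencing with a stranded kit, per the labels' protocols. The authors deposited 1 table of TPM for all samples, and each column summed to 1000000. The tools were cutadapt, HISAT2 and featureCounts of Subread, with the build mm10, per the submitters' processing notes, which give no versions. The step from counts to TPM is not described there. TPM are shares of a library, so a rise of some genes lowers others, and they keep no depth. Of 24062 rows, 27 whose names a spreadsheet had turned into dates, 0.124 to 0.145% of TPM, were left out. Every column matched 1 sample by its label.

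limma 3.58.1 in R 4.3.3 was fitted to log2(TPM + 1) of 14693 genes with at least 1 TPM in 3 or more samples, with 4 group means, a mean-variance trend and Benjamini-Hochberg adjustment over all genes (two-sided, 0.05). Fold changes are on the log2(TPM + 1) scale, which understates low genes. Tables and plots used Python 3.11.15, pandas 2.3.3, numpy 2.4.6 and matplotlib 3.10.9. Tested on simulated data, 4 of 50 genes were called at the smallest fold, which was below 1.5, and 30, 45 and 50 of 50 at 1.5-, 2- and 4-fold, with 9 false calls among 138. The simulated noise was normal, and the changes were planted only in genes of higher mean level and only in the LC-DTA croton oil group. Of the tested genes, 90 reached 1 TPM in 1 group only, and 46 of these were called. Gene positions are from GENCODE M21 (GRCm38) and promoters from RefSeq (GRCm38.p6).

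The genes named were the 6 with the largest differences in each direction and class (4 for larger and smaller responses) with a group mean of 5 TPM, and the 4 lowest p of each list. Not all of these are described, and some were passed over for genes of better known function. Others, among them the genes that differed under vehicle only and those not called, were chosen after their values were seen. The comparison and the lists were chosen with earlier results of these data known. The labels name no pairing of samples between the groups. Alternatives were pseudocounts of 0.1 and 5, other filters, rescaling, limma variants, a replicate block and samples left out.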

Additional observations from a re-analysis of the deposited data

Results flagged for a closer look

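The responses of the 2 genotypes differed, by the interaction term itself, at 3389 genes. In 3 of 104 groups of 4 samples, tested over 52 named genes, 1 sample lay apart from the other 3 by more than Dixon's critical value for 4 samples, and chance alone gives about 1 in 20. All 3 were in LC-DTR croton oil. For Orm3 the gap was 0.926 of the group's range, with samples at 11.3, 10.9, 6.63 and 10.95 TPM. For Igfbp5 it was 0.834, with samples at 36.6, 39.02, 53.6 and 37.5 TPM, of which sample 3 was the highest. For Stfa3, a stefin gene of neutrophils and stressed epidermis with near copies, it was 0.907, with samples at 78.96, 49.3, 75.6 and 77.04 TPM, of which sample 2 was the lowest. The LC-DTR croton oil samples of Stfa3 were nevertheless all below the LC-DTA croton oil samples at 267, 313, 303 and 193 TPM (difference 2.87 ± 0.64, limma adjusted p = 0.00746).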

How the results depend on the processing

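Between 2341 and 3786 genes were called under the settings that left out no single sample, and with 1 sample left out between 2220 and 3575. Genes shared with the 3389 kept their direction under each setting. With 1 sample left out, higher differences ranged from 1063 to 1647, lower from 1157 to 2168, gained from 888 to 1647, lost from 685 to 1027, reversed from 269 to 412, larger from 194 to 472 and smaller from 76 to 248. LC-DTA vehicle 2 gave the lowest total, 2220, with 888 gained and 194 larger responses. Larger responses were 232 without LC-DTR vehicle 2. Smaller responses were 76 without LC-DTA vehicle 1 or 3, 88 without LC-DTA vehicle 2 and 248 without LC-DTR croton oil 3. Smaller responses numbered 90 with no filter on low values and 310 with array weights. With the replicate block, 2660 genes were called, and 227 were larger responses. Deviations of same-numbered samples from their group means had correlations of -0.315 to 0.126 over 19 pairs. These gave no sign of pairing by number, but groups this small cannot exclude it. Without LC-DTA croton oil 3 and 4, larger and smaller responses were 188 and 68, and without LC-DTR croton oil 2 and 3 they were 257 and 428. Without LC-DTR croton oil 1 and 4, chosen after seeing the data, 559 lost and 84 smaller responses were left. Counting responses of at least 1.5-fold only, by construction fewer, gave 915 gained, 548 lost, 33 reversed, 97 larger and 52 smaller. The cause of the other shifts was not tested. The share of higher calls was 45.5% as deposited and 50.9% after quantile normalization.

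Signs changed only for genes near 0 or not called, for Osm, at -0.0944 with a pseudocount of 0.1, and for Krt10, at -0.0389 after quantile normalization. Fos was 0.0196 after quantile normalization, 0.15 with array weights and 0.12 without LC-DTR croton oil 1 and 4. Without that pair S100a8 was 0.42, Mcpt4 -0.0160, Cxcl1 0.0309 and Dusp6 0.18. S100a9 was -0.24 with array weights and -0.50 without LC-DTR croton oil 2 and 3, and Cxcl1 was 0.28 with array weights. With 1 sample left out, Fos ranged from -0.47 to 0.45, S100a8 from -0.74 to 0.24, S100a9 from -0.19 to 0.71, Cxcl1 from -0.84 to 0.90, Mcpt4 from -0.14 to 0.22, Cma1 from -0.35 to 0.0379, Insig1 from -0.0160 to 0.17 and Dusp6 from -0.34 to 0.17. Depth is unknown, so what it limits cannot be given.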

Other observations

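Of 20 heat shock and chaperone genes tested, 5 had a higher and 6 a lower difference, beside 10.5% and 12.6% of all genes tested. The median of the 20 was 0.19. The lower count was not stable: it was 1 with the replicate block, 2 with no filter on low values, 2 without LC-DTR croton oil 2 and 3, 3 without LC-DTA croton oil 3 and 4, and 1 to 5 with single samples left out. The higher count stayed between 5 and 8. Hspd1 and Hspe1, the mitochondrial chaperonin and its partner, had differences of 0.62 and 0.53, and Chordc1 and Stip1, partners of Hsp90, 0.74 and 0.54. Bag3, Hspb8 and Dnajb1 were among the lower ones, at -0.63, -0.55 and -0.29, and the calls of Hspb8 and Dnajb1 were lost under 10 and 13 of 27 settings.

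Of 18 Nrf2 target and glutathione genes tested, 5 had a higher and 2 a lower difference, beside 10.5% and 12.6% of all genes tested. The median of the 18 was 0.15. Gsta4, a glutathione transferase with related copies, had the largest of them, at 2.08 ± 0.36 (limma adjusted p = 0.00197). It was at 11.7 to 26.4 TPM in LC-DTR vehicle, 21.3 to 46.9 TPM in LC-DTR croton oil, 19.1 to 21.6 TPM in LC-DTA vehicle and 136 to 185 TPM in LC-DTA croton oil ears. LC-DTA croton oil samples were above all others. Gpx2 and Prdx1, which remove peroxides, had differences of 0.87 and 0.51. Slc7a5, an amino acid transporter, rose less in LC-DTA, at -1.05.

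Cornified envelope genes, which build the outer barrier of the epidermis, had 6 higher and 1 lower difference of 22 tested. The shares over all genes tested were 10.5% and 12.6%, and the list median was 0.15. The counts were 3 and 0 with no filter on low values, and the lower count was 5 without LC-DTR vehicle 2. Tgm3 and Casp14, a transglutaminase and a protease of late differentiation, and Krt10, a keratin of the suprabasal layers, were lost falls at 0.89, 0.89 and 0.63. Lor, which encodes loricrin, went the other way as a gained fall, at -0.46. The calls of Tgm3, Krt10 and Lor were lost under 14, 5 and 4 of 27 settings, and the sign of Krt10 turned after quantile normalization.

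Of 17 genes of the interleukin-1 and interleukin-36 family, 3 had a higher and 2 a lower difference, and of 19 prostaglandin and leukotriene synthesis genes 4 and 2. Over all genes tested, 10.5% had a higher and 12.6% a lower difference. Without LC-DTA croton oil 3 and 4 the prostaglandin and leukotriene counts were 2 and 0. Of 22 plasminogen activator and matrix protease genes, 1 had a higher and 6 a lower difference. Timp1, an inhibitor of metalloproteinases, was the higher one, at 1.47 ± 0.40 (limma adjusted p = 0.0184), and its call was lost in 2 of 27 settings.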
